A study of Mus musculus with 12 samples.

Results

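The transcripts of 9 genes were followed in mouse blood through chronic hypoxia and recovery. Epor, Jak2, Stat5a and Stat5b encode the erythropoietin receptor and the proteins that carry its signal to the nucleus. Kit, Myb, Gata2, Bcl11a and Cd34 encode a receptor, 3 transcription factors and a surface protein known from blood progenitors. Every probe set that the array's annotation gives to 1 of these genes alone was taken. A probe set is a group of short oligonucleotides that together measure 1 transcript. This gave 22 of the 45101 probe sets of the array, for 9 of the 18194 genes that have a probe set of their own. All 22 are reported, since none was removed for a low signal.

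Blood was drawn from 12 mice of the strain C57Bl/10, all with 3 months as their labelled age, and each mouse gave 1 array. The 4 REC mice spent 2 weeks in chronic hypoxia and then 2 weeks back in normoxia. The 4 CH mice spent 2 weeks in normobaric chronic hypoxia, in which oxygen was lowered to 8%. The 4 NX mice stayed at 21% oxygen. All were wild type in the labels, and no drug or other agent is given for any of them. The blood was not sorted. Fewer cells of a type and less RNA per cell therefore cannot be told apart in any value below. Because the arrays are scaled to a common mean, a smaller share of all RNA cannot be told apart from these either. One label field calls the CH mice normoxic, whereas their titles, their protocol and the methods call them hypoxic, which was followed.

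Erythropoietin is the hormone, made mainly in the kidney, that keeps late erythroid progenitors alive and lets them mature. It binds a pair of EPOR chains at the cell surface. The kinase JAK2, which sits on the receptor, then phosphorylates STAT5A and STAT5B, which enter the nucleus and switch on survival genes such as Bcl2l1 and feedback inhibitors such as Cish. KIT, the receptor of stem cell factor, acts with EPOR in early erythroid progenitors. MYB and GATA2 are factors of the progenitor stage that normally give way as erythroid cells mature. BCL11A is best known as the repressor that silences embryonic and fetal globin genes, and is also needed for B cells and plasmacytoid dendritic cells. CD34 marks stem and progenitor cells and the endothelium. JAK2, the STAT5 proteins and GATA2 also work in white cells: STAT5 in lymphocytes, and GATA2 in basophils and mast cells.

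Signals were deposited as linear array units after a scaling that leaves each array with a trimmed mean of 150, and array medians ranged from 32.9 to 59.9. Among the 27 probe sets for Bacillus genes, which no mouse transcript should bind and for which an added RNA is not mentioned in the sources used here, the highest signal was 13.4 in REC, 53.6 in CH and 23.9 in NX arrays. A gene said never to exceed the Bacillus controls stayed under 53.6 on all 12 arrays. Array-wide measures moved with the groups. The hybridization controls, bacterial RNAs added to each sample, differed by 1.62 on the log2 scale in CH minus NX, by -0.81 in REC minus NX and by -2.43 in REC minus CH (exact two-sided permutation p = 0.0286 each, which is the lowest value possible with 4 arrays a group). Signal at the 3′ end of actin over that at its 5′ end, a ratio that grows as RNA is degraded, was 1.61 ± 0.0923 in REC, 2.00 ± 0.0941 in CH and 1.71 ± 0.104 in NX (SD, n = 4 arrays each; exact permutation p = 0.0286 between CH and NX and 0.2 between REC and NX). The CH arrays were also less alike, with correlations between arrays down to 0.824, against 0.955 or more in REC and 0.91 or more in NX. The part of these measures in the results below was not tested.

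The stretches of DNA just before the start of the genes are shown first, because GATA factors and STAT5 act through short motifs in such stretches. RefSeq windows of 250 bases before the start were found for 9 of the 9 genes, 13 windows in all, on the mouse build GRCm38.p6. On both strands they were searched for GATA motifs (the letters AGATAA and also TGATAA, each with A or with G as its last letter), the STAT motif (TTCNNNGAA), the KLF motif (CCNCNCCC) and the MYB motif (AACGG, with AACTG as the alternative). A GATA motif stood in 2 of the 13 windows, those of Epor and Cd34, and in 26.5% of all 32851 windows of this length. A STAT motif stood in 1, that of Bcl11a, and in 7.02% of all. A KLF motif stood in 10 of the 13, and in 45.9% of all, and a MYB motif stood in 0 of the 13 and 48.6% of all. The 2 windows of Kit overlap almost fully and hold the same KLF matches, so they are not independent. Capitals mark the GATA match in the windows of Epor (chr9:21963577-21963826, minus strand, match 54 bases before the start) and Cd34 (chr1:194938571-194938820, plus strand, match 226 bases before the start), both given 5′ to 3′ in the direction of the gene, with the motif on the opposite strand.
Epor: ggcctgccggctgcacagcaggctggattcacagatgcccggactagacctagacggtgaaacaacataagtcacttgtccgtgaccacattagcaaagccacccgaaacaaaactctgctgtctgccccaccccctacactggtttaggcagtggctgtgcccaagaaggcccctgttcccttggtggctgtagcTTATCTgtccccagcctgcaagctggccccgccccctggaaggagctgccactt
Cd34: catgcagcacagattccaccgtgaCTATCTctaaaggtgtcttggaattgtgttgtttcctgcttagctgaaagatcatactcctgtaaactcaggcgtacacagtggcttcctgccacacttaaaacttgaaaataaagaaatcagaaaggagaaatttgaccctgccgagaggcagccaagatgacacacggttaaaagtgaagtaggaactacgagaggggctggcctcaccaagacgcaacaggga

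The window of Bcl11a (chr11:24080445-24080694, plus strand) has its STAT match, in capitals, 224 bases before the start. The first windows of Stat5a (chr11:100859406-100859655, plus strand) and Stat5b (chr11:100850582-100850831, minus strand) are shown because these neighbours point away from each other with 8574 bases between the windows, and because their transcripts moved together in the arrays. Neither held a GATA or a STAT match, so they have no capitals. G and C made up 57.6% of the Stat5a window and 82.0% of the Stat5b window. A match is a description of the letters only.
Bcl11a: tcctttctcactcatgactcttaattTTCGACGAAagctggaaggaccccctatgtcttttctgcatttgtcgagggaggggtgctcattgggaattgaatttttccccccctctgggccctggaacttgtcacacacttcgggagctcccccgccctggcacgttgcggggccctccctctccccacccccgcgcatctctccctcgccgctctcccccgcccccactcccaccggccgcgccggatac
Stat5a: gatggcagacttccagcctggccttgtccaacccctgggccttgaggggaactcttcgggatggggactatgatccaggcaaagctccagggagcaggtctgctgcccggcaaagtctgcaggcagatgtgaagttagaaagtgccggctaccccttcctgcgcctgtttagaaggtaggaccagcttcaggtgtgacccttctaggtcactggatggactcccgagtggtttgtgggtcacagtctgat
Stat5b: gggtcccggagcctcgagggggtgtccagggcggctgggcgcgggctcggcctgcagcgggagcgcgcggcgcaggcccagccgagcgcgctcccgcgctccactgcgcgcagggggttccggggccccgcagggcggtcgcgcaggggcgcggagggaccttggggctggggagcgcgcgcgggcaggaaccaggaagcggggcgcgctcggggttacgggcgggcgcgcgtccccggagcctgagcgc

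The 3 group comparisons were fitted over all 45101 probe sets with limma on log2(signal + 16), and p-values were adjusted over all of them by the Benjamini-Hochberg method. A call, higher or lower, needed both an adjusted p below 0.05 and a 2-fold difference. Adding 16 makes the change of a dim transcript smaller than its ratio of signals. In CH against NX, 9 of the 22 probe sets were called lower, those of Stat5a, Stat5b, Myb and Bcl11a, against 13.9% of all probe sets. None, 0 of 22, was called higher, against 8.04% of all. At an unadjusted p under 0.05, 11 were lower and 2 higher, and the analysis of variance without moderation also gave 9 lower and 0 higher. The median change of the 22 was -0.66 on the log2 scale, against 0.11 over all probe sets. Some of the 9 probe sets called lower measure the same gene, so they are not independent. With 1 probe set per gene, 4 of the 9 genes were called lower, against 19.5% of all 18194 genes.

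After recovery most of these values lay near those of NX. In REC against NX, 1 of the 22 probe sets was called lower, for Bcl11a, and 0 higher, against 2.74% and 1.62% of all probe sets. At an unadjusted p under 0.05 there was 1 in each direction, and the analysis of variance without moderation again called 1 lower and 0 higher. In REC against CH, 10 were called higher and 0 lower, against 15.2% and 12.6% of all. The 10 belonged to Stat5a, Stat5b, Myb, Gata2 and Bcl11a. With 1 probe set per gene, 5 of the 9 genes were called higher, against 23.3% of all 18194 genes. At an unadjusted p under 0.05, 11 of the 22 probe sets had a positive and 2 a negative change, and the unmoderated test gave 10 and 0. The median changes were -0.07 in REC against NX and 0.63 in REC against CH, where all probe sets had medians of -0.10 and -0.25. The arrays of the 2 groups did not overlap for 11 of the 22 probe sets in CH against NX, for 3 in REC against NX and for 12 in REC against CH, against 26.1%, 20.3% and 32.4% of all probe sets. The comparisons share arrays, so their counts are not independent of one another.

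**Figure D1:**
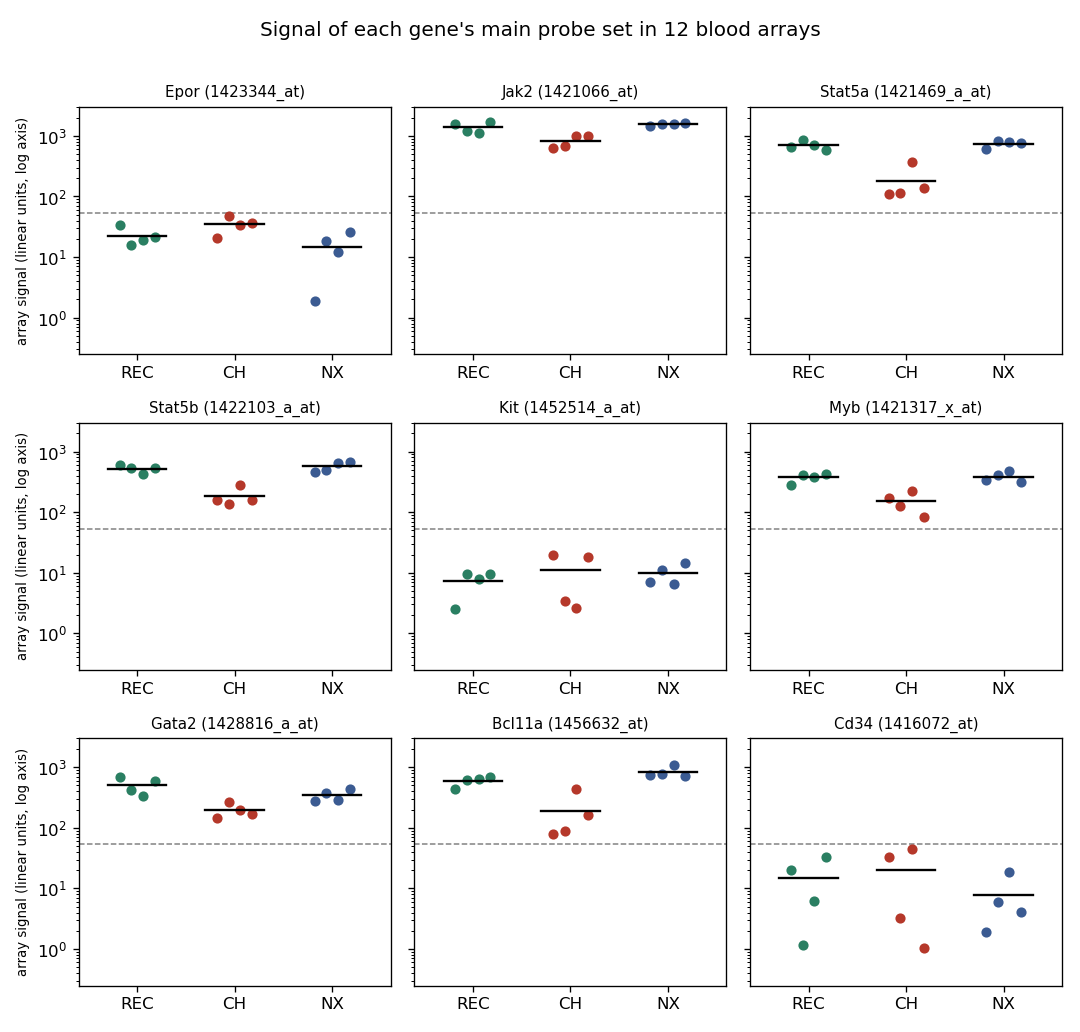
Signal of the main probe set of each of the 9 genes (linear array units on a log axis) in REC, CH and NX blood, with 1 point per array, a bar at the mean of 4 arrays and a dashed line at 53.6, the highest signal of a Bacillus control. Stat5a, Stat5b, Myb and Bcl11a were lowest in CH, and the points of Epor, Kit and Cd34 all lie below the dashed line.

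The receptor gene Epor was close to the limit of what the arrays measured. Its probe set 1423344_at read 33.4, 15.9, 19.1 and 21.1 in REC blood, 21.0, 47.4, 33.4 and 37.0 in CH blood, and 1.89, 18.6, 12.1 and 25.8 in NX blood. The 2 highest signals came from CH arrays, but the groups overlapped, and no array exceeded 53.6. Against the Bacillus controls of their own group, all 4 REC arrays, 0 CH arrays and 1 NX array were higher. The mean was 22.4 ± 7.64 in REC, 34.7 ± 10.9 in CH and 14.6 ± 10.2 in NX (SD, n = 4 each). The log2 change was 0.77 ± 0.29 in CH against NX (SE, limma adjusted p = 0.0599), 0.37 ± 0.29 in REC against NX (adjusted p = 0.569) and -0.39 ± 0.29 in REC against CH (adjusted p = 0.296). None passed the test. The CH change was 0.55 under quantile normalization and 0.61 with median centring. With scaling to the hybridization controls, which moved the median of all probe sets in CH against NX to -0.71, that of Epor was -0.15.

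Jak2, the kinase of the receptor, has 2 probe sets. The main one, 1421066_at, read 1599, 1185, 1132 and 1668 in REC, 626, 685, 989.9 and 997 in CH, and 1465, 1593, 1573 and 1656 in NX. Every CH array was below every REC and every NX array, and the REC and NX arrays overlapped. The change was -0.95 ± 0.24 in CH against NX (adjusted p = 0.00816) and 0.76 ± 0.24 in REC against CH (adjusted p = 0.0234), each past the p threshold but short of 2-fold. It came to at least 2-fold in CH against NX with median centring (-1.10) and with array weights (-1.05). The same held without CH replicate 3 (-1.04) or CH replicate 4 (-1.05), and with NX replicate 1 and CH replicate 4 left out together (-1.08). With scaling to the hybridization controls it was -2.52, where the median of all probe sets moved to -0.71. The other probe set, 1421065_at, averaged 129 ± 39.5 in REC, 305 ± 230 in CH and 236 ± 73.4 in NX, and 1 CH array stood at 641. It was called in no comparison, with changes of 0.16, -0.79 and -0.95 in CH against NX, REC against NX and REC against CH. The last was called lower without CH replicate 1 (-1.26, adjusted p = 0.0251) and with CH replicates 1 and 2 left out together (-1.56), and that in REC against NX with array weights (-1.02). The within-array difference between these 2 probe sets moved by 1.11 on the log2 scale in CH against NX (exact permutation p = 0.0286, adjusted p = 0.0858 over 87 such tests).

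Stat5a fell in CH more than any other member of the receptor and signal group. Its main probe set 1421469_a_at read 644, 870.1, 695 and 575 in REC, 109.8, 113, 369 and 138 in CH, and 600.3, 809, 791 and 764 in NX. All CH arrays lay below all others, with CH replicate 3 nearest to them, and REC and NX overlapped. In CH against NX the change was -2.10 ± 0.33, a 4.27-fold lower value (adjusted p = 0.000322). In REC against CH it was 2.00 ± 0.33 (adjusted p = 0.000271), and in REC against NX -0.09 ± 0.33 (adjusted p = 0.934). The second probe set, 1450259_a_at, did not exceed 45.4 on any array and was called in no comparison. With the mean of both probe sets in place of the main one, the change was -0.98 in CH against NX and 0.84 in REC against CH, and neither was called.

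Stat5b, the neighbour and close relative of Stat5a, followed the same order of groups. Probe set 1422103_a_at read 596, 527, 421 and 528 in REC, 159.9, 135, 276 and 156 in CH, and 465, 501, 658 and 685 in NX. Again every CH array was below every other array and CH replicate 3 was the highest of the 4. The change was -1.62 ± 0.26 in CH against NX, 3.07-fold lower (adjusted p = 0.00037), 1.47 ± 0.26 in REC against CH (adjusted p = 0.000464) and -0.14 ± 0.26 in REC against NX (adjusted p = 0.848). The dim second probe set, 1422102_a_at, ranged between 6.19 and 53.8 over the 12 arrays and was called in no comparison. With the mean of both probe sets, the change in REC against CH was 0.84 and was no longer called. Because STAT5A and STAT5B are very similar in sequence, probes for one can bind some RNA of the other, and the sources used here do not say how far these do.

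**Figure D2:**
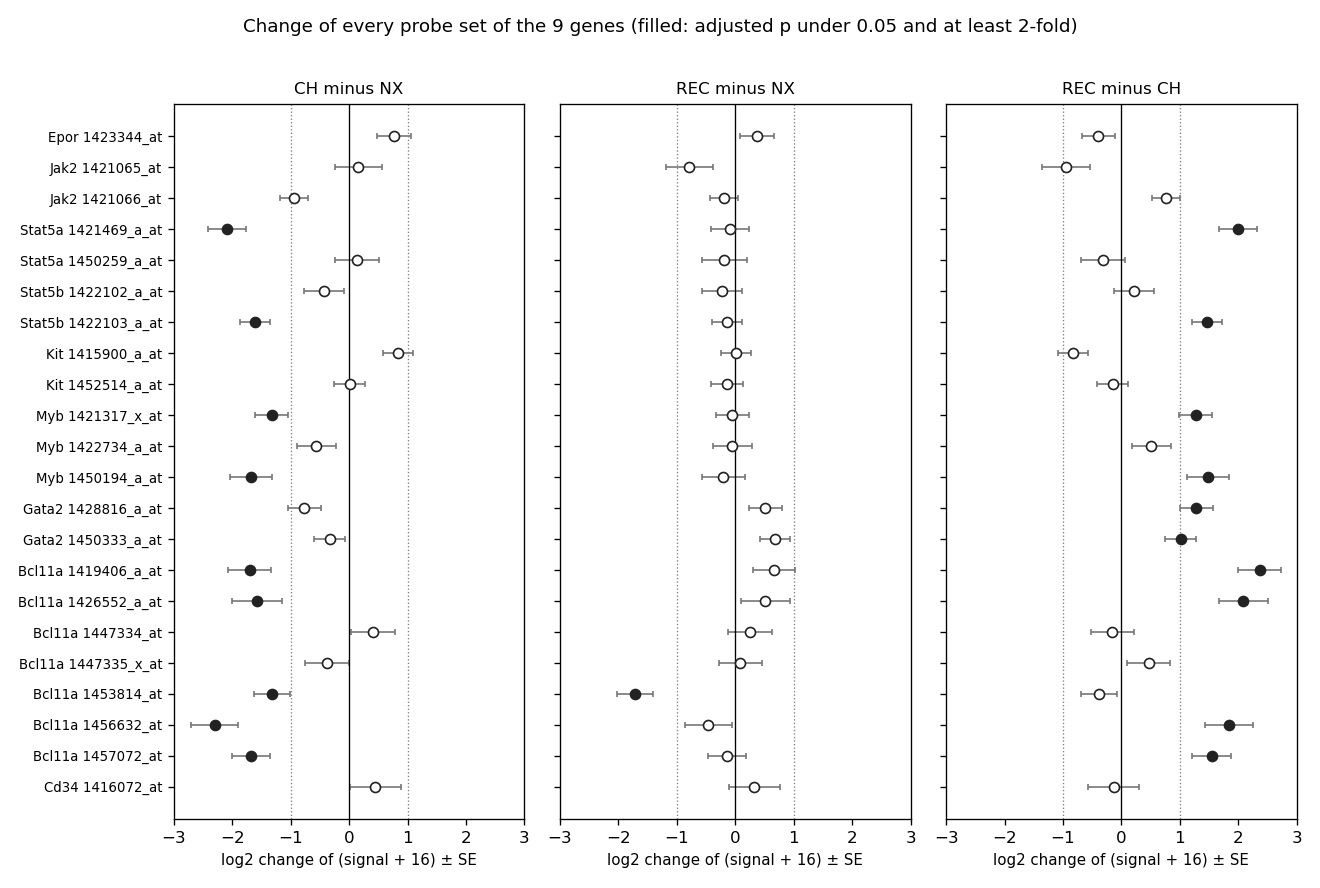
Log2 change of (signal + 16) with its standard error for all 22 probe sets in CH minus NX, REC minus NX and REC minus CH, with filled points for called probe sets and dotted lines at a 2-fold change. Filled points number 9 in CH minus NX, 1 in REC minus NX and 10 in REC minus CH.

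Kit and Cd34, the surface proteins of progenitors, were hardly detected in blood. The main Kit probe set 1452514_a_at ranged from 2.56 to 9.69 in REC, from 2.58 to 19.7 in CH and from 6.42 to 14.7 in NX. The other one, 1415900_a_at, read 1.22, 1.70, 1.46 and 0.335 in REC, 5.36, 22.3, 30.2 and 6.78 in CH, and 0.966, 0.798, 1.39 and 0.911 in NX. For this probe set the CH arrays were all above the others, yet all lay below the highest Bacillus control signal of CH arrays. Its change was 0.84 ± 0.26 in CH against NX (adjusted p = 0.0253) and -0.83 ± 0.26 in REC against CH (adjusted p = 0.023), past the p threshold and short of 2-fold. Without CH replicate 1 the CH change was 1.01, and with 1 in place of 16 added to the signals it was 2.78, both of which were called. The 27 Bacillus probe sets had medians of 2.47 in REC, 6.32 in CH and 2.36 in NX arrays. Cd34 (1416072_at) ranged from 1.16 to 32.6 in REC, from 1.03 to 44.2 in CH and from 1.90 to 18.9 in NX, and 2 REC arrays alone exceeded the Bacillus controls of their own group. Its change in CH against NX was 0.45 ± 0.44 (SE, limma adjusted p = 0.483) and was not called.

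Myb, a factor that keeps progenitors dividing and is also used by lymphocytes, was lower in CH. The main probe set 1421317_x_at read 283, 414, 375 and 422 in REC, 174, 129, 220.1 and 83.2 in CH, and 345, 411, 474 and 320.3 in NX. No CH array reached the level of any REC or NX array. The change was -1.32 ± 0.28 in CH against NX, 2.51-fold lower (adjusted p = 0.00271), 1.27 ± 0.28 in REC against CH (adjusted p = 0.00274) and -0.05 ± 0.28 in REC against NX (adjusted p = 0.961). Its name ends in x, which marks probe sets whose probes can bind other transcripts. The second probe set, 1450194_a_at, read 69.0, 104.5, 85.8 and 58.2 in REC, 50.4, 4.87, 4.04 and 30.4 in CH, and 91.9, 112.5, 106 and 64.3 in NX, and was called with changes of -1.68 in CH against NX and 1.48 in REC against CH. All its CH signals were below 53.6, and with a pseudocount of 64 its changes were -0.89 and 0.76 and neither was called. The third, 1422734_a_at, had smaller changes of -0.56 and 0.51 that did not pass the test. Under quantile normalization the main probe set changed by -0.998 in CH against NX and by 0.92 in REC against CH, both short of 2-fold.

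Gata2, which maintains stem cells and early progenitors and gives way to Gata1 in erythroid cells, had its highest means in REC. Probe set 1428816_a_at read 683, 414, 335 and 598 in REC, 146, 269, 196 and 171 in CH, and 278, 379.5, 283 and 429.5 in NX. The CH arrays lay below those of both other groups, and REC and NX overlapped. The step between REC and CH passed the test, with a change of 1.29 ± 0.28, 2.44-fold higher in REC (adjusted p = 0.00258). The change in CH against NX was -0.77 ± 0.28 (adjusted p = 0.0544) and that in REC against NX 0.52 ± 0.28 (adjusted p = 0.375). Probe set 1450333_a_at read 426, 286, 259 and 316 in REC, 101, 157, 199 and 154 in CH, and 193, 185, 144 and 258 in NX. For it the REC arrays were all above those of both other groups, but the lowest REC signal (258.9) was close to the highest NX signal (257.9). Its change in REC against NX was 0.68 ± 0.26 (limma adjusted p = 0.177) and was not called. Its change in REC against CH was 1.01 ± 0.26 (adjusted p = 0.00809). That call was lost without CH replicate 1 (0.85), without REC replicate 1 (0.87) and under quantile normalization (0.70), which also took the call from 1428816_a_at (0.87). It was also lost with a pseudocount of 64 (0.83), with array weights (0.99) and with CH replicates 1 and 2 left out together (0.80).

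Bcl11a had the largest log2 changes of the 9 genes in CH against NX and in REC against CH with 16 added to the signals, and has 7 probe sets. With 1 added, the dim Kit probe set 1415900_a_at had larger ones. The main one, 1456632_at, read 442, 607, 649 and 688 in REC, 77.9, 88.6, 441 and 165 in CH, and 758, 764, 1077 and 716 in NX. The NX arrays were all above the REC arrays, which were all above the CH arrays, although REC replicate 1 and CH replicate 3 came within 1 unit of signal of each other. The change was -2.30 ± 0.40 in CH against NX, 4.93-fold lower (adjusted p = 0.000751), 1.84 ± 0.40 in REC against CH (adjusted p = 0.00268) and -0.46 ± 0.40 in REC against NX (adjusted p = 0.628).

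Of the other Bcl11a probe sets, 3 were also lower in CH than in NX and higher in REC than in CH. They were 1419406_a_at, 1426552_a_at and 1457072_at, with changes of -1.70, -1.57 and -1.69 in CH against NX and of 2.36, 2.09 and 1.54 in REC against CH, all called. Probe set 1419406_a_at read 536, 785, 1060 and 607 in REC, 60.0, 102, 256.5 and 156.5 in CH, and 330, 434, 621 and 463 in NX. The call of 1426552_a_at in CH was lost under quantile normalization (-1.40, adjusted p = 0.058) and with CH replicates 1 and 2 left out together (-0.89). In these 4 probe sets CH replicate 3 was always the CH array nearest to the other groups.

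A single Bcl11a probe set was still called lower than in NX after recovery. Probe set 1453814_at read 15.4, 25.0, 13.5 and 41.4 in REC, 29.9, 34.1, 71.9 and 15.9 in CH, and 114, 109, 98.7 and 120 in NX. The NX arrays stood above all 8 others, and REC and CH overlapped. All its REC signals, and all its CH signals except that of replicate 3, were below 53.6, the highest Bacillus control signal. Its change was -1.32 ± 0.31 in CH against NX (adjusted p = 0.00496), -1.71 ± 0.31 in REC against NX, 3.28-fold lower (adjusted p = 0.00611), and -0.39 ± 0.31 in REC against CH (adjusted p = 0.331). Both calls against NX were lost when 64 was added to the signals in place of 16 (-0.80 and -0.998). The within-array difference between this probe set and the main one moved by -1.25 in REC against NX (exact permutation p = 0.0286, adjusted p = 0.0858 over 87 tests). Over all 29 pairs of probe sets of the same gene, 0 of 87 such tests passed an adjusted p of 0.05, and 29 had an unadjusted p under 0.05. The remaining probe sets, 1447334_at and 1447335_x_at, reached at most 45.4 and 61.9 on any array and were called in no comparison.

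**Figure D3:**
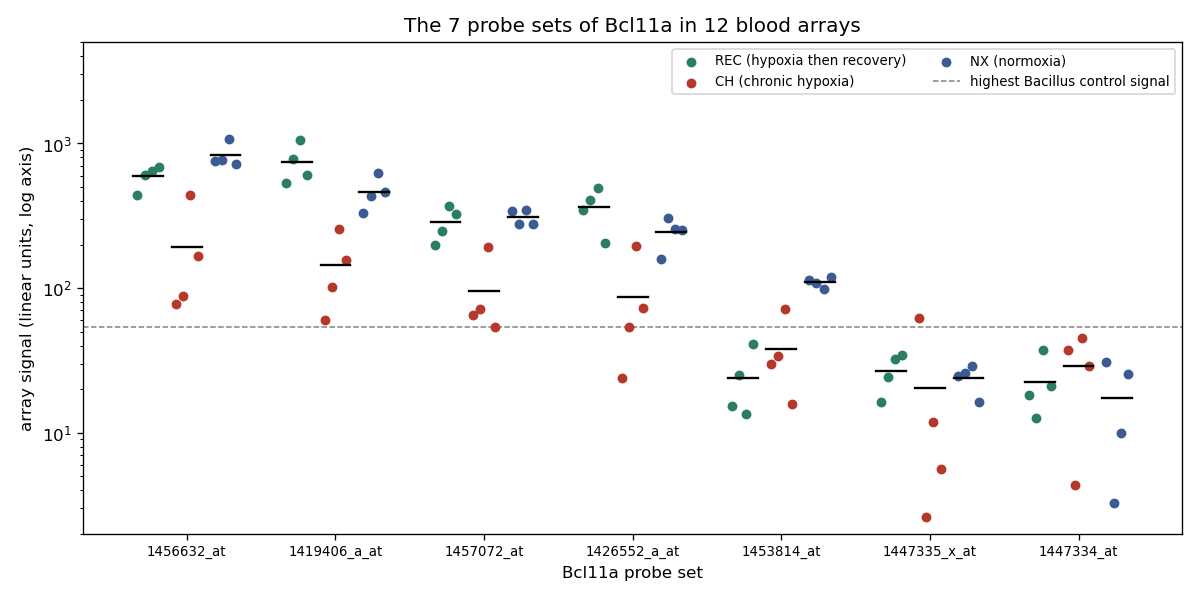
Signal of the 7 Bcl11a probe sets (linear array units on a log axis) in the REC, CH and NX arrays, with 1 point per array, a bar at the mean of 4 arrays and a dashed line at the highest Bacillus control signal, 53.6. The 4 brightest probe sets were lowest in CH, while 1453814_at was low in both REC and CH, between 13.5 and 71.9, against 98.7 to 120 in NX.

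Markers of blood cell types moved with these changes. Of 14 listed B cell markers 13 were measured, and 12 were lower in CH than in NX, with the largest log2 changes in Blk (-2.56), Cd72 (-2.53), Bank1 (-2.43) and Cd22 (-2.41). Their summed signal was 28906, 31158, 34339 and 29184 in REC, 3526, 4104, 16304 and 7704 in CH, and 25747, 28227, 32436 and 27671 in NX. CH replicate 3, which had the highest CH signals of the main probe sets of Stat5a, Stat5b, Myb and Bcl11a, also had the highest B cell sum of the 4. That was not particular to B cells, since its T cell, NK cell, monocyte and plasmacytoid dendritic cell sums were also the highest of the CH arrays. Pax5 was the single B cell marker that never rose above the Bacillus controls. T cell markers were lower in CH for 10 of 12 measured of 14, led by Cd3e, which fell by 2.06, with sums of 10969 to 11578 in REC, 1692 to 5980 in CH and 6406 to 8697 in NX. Of 9 measured plasmacytoid dendritic cell markers 3 were lower in CH, Spib, Irf8 and Tcf4, and Bst2 was higher in REC than in NX. The median change of the 9 in CH was -0.16. Bst2 (-0.50), Pacsin1 (-0.16), Siglech (-0.10), Klk1 (0.33), Ccr9 (0.83) and Cox6a2 (0.985) were not called there. The sums were 5768 to 7079 in REC, 1227 to 2664 in CH and 4105 to 5626 in NX. Spib was the largest part of them, with means of 3454 in REC, 482 in CH and 2250 in NX. In REC against NX limma called 0 of the B cell and 0 of the T cell markers, with 1 and 2 at an unadjusted p under 0.05. The part of these cell types in the changes of Stat5a, Stat5b, Myb and Bcl11a was not tested.

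Markers of basophils, mast cells and eosinophils, which use GATA2, were called in few cases. Of 11 measured basophil and mast cell markers limma called 0 in CH against NX, where 0 had an unadjusted p under 0.05, and 1 in REC against NX, the mast cell protease gene Cma1, which was higher by 1.47. Their sums of 580.5 to 1019 in REC, 366 to 959 in CH and 407 to 745 in NX overlapped, and Tpsab1 and Mcpt4 never exceeded the Bacillus controls. Of 6 measured eosinophil markers, Siglecf had a change of -1.66 in CH against NX and Ear3 was higher in REC than in NX by 2.58, while Epx stayed at control level. The eosinophil sums were 1189 to 1452 in REC, 223.5 to 618.5 in CH and 443 to 659 in NX. Most of the REC sum was Ear3, which averaged 962 in REC, 88.0 in CH and 151 in NX, while Prg2, Ccr3 and Il5ra had changes of -0.41, -0.59 and -0.53 in REC against NX that were not called. The part of these cells in the values of Gata2 was not tested.

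In CH against NX, erythroid markers went the other way from Stat5a, Stat5b, Myb and Bcl11a. Of 20 listed 15 were measured, of which 14 were higher in CH than in NX and 9 lower in REC than in NX, with sums of 10106 to 32225 in REC, 199233 to 319498 in CH and 46361 to 71433 in NX. The probe set named for Hba-a1 alone was the one that never exceeded the Bacillus controls. The part of this rise in the changes of the 9 genes was not tested. NK cell markers were lower for 4 of 9 and higher for 1 in CH, and higher for 4 in REC against NX, with sums of 9226 to 15641 in REC, 1615 to 2954 in CH and 3477 to 5854 in NX. Of 9 monocyte markers 3 were lower in CH and 0 were called in REC against NX (2 at an unadjusted p under 0.05), with overlapping sums of 12595 to 16505 in REC, 4920 to 14412 in CH and 10467 to 16871 in NX. Of 10 neutrophil and 12 platelet markers limma called 0 in either comparison with NX, with 0 and 1 at an unadjusted p under 0.05 in each. Of 11 endothelial markers 1, Esam, was lower in CH, 0 were called in REC against NX (1 at an unadjusted p under 0.05), and Cdh5, Tek and Tie1, which define endothelium, never rose above the Bacillus controls. Over all 18194 genes, the calls against NX made up 9.08% higher and 19.5% lower for CH, and 2.50% and 1.79% for REC, with median changes of 0.0536 and -0.0215.

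**Figure D4:**
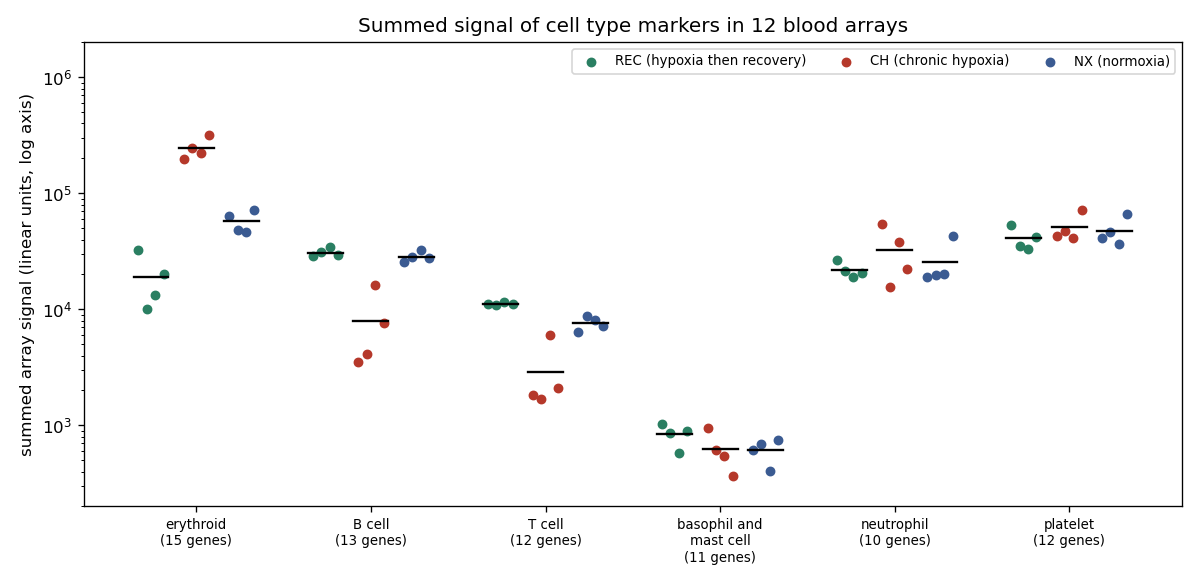
Summed signal of the measured markers of 6 blood cell types (linear array units on a log axis) in the REC, CH and NX arrays, with 1 point per array and a bar at the mean of 4 arrays. The B cell and T cell sums of CH, 3526 to 16304 and 1692 to 5980, lie below those of REC and NX, while the erythroid sums of CH lie above them.

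The ligand list holds cytokines of EPOR, KIT and related receptors. Of 9 listed ligands 6 were measured, and limma called 0 in CH and 0 in REC against NX, with 0 and 1 at an unadjusted p under 0.05 and medians of 0.0705 and -0.26. Erythropoietin itself was not analysed here. Kitl, the ligand of KIT, averaged 32.7 in REC, 85.3 in CH and 72.7 in NX with overlapping arrays and a highest signal of 181. Igf1 reached 232 and averaged 59.3 in REC, 136 in CH and 97.9 in NX, again with overlap, and Il3, Csf2 and Il9 never rose above the Bacillus controls. Il4 was the single ligand called anywhere, higher in REC than in CH by 1.08 (adjusted p = 0.036), with means of 59.7 in REC and 23.0 in CH. In that comparison 23.3% of all 18194 genes were called higher, against 1 of the 6 ligands.

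Several receptors and kinases of related pathways fell beside Stat5a and Stat5b. Of 16 measured genes of this list of 19, 9 were lower and 1 higher in CH than in NX. The shares of all 18194 genes were 19.5% lower and 9.08% higher. For REC against NX limma called 0 of the 16, with 4 at an unadjusted p under 0.05. The median change of the 16 was -1.10 in CH and -0.19 in REC. Stat6 and Stat3, the STAT proteins of interleukin-4 and interleukin-6 signals, fell by 1.94 and 1.86, and Btk, a kinase of B cell receptor signals, fell by 1.81. Tfrc, the transferrin receptor that brings iron into erythroid cells, rose by 3.85 ± 0.28 (adjusted p = 1.43e-06). Tfrc read 488.5, 635, 659 and 563 in REC, 12564, 15103, 7101 and 17753 in CH, and 854, 928, 961 and 676 in NX. The CH arrays were all above the others, and CH replicate 3 was the lowest of them. The summed erythroid markers were instead lowest in CH replicate 1 (199233), with 222913 in CH replicate 3.

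Among the adaptors and the RAS pathway behind the receptor, 7 of 16 measured genes of 20 listed were lower and 2 higher in CH than in NX, with a median of -0.71. All 18194 genes gave 19.5% lower and 9.08% higher. Vav1 and Plcg2, signal proteins of lymphocytes and myeloid cells, fell by 1.77 and 1.76. Map2k2, a kinase of the RAS pathway, and Crkl, an adaptor, rose by 3.08 and 1.90. In REC against NX 2 were lower, Cblb by 1.56 and its relative Cbl by 1.47, both ubiquitin ligases that damp receptor signals, and the median was 0.096. Cblb read 225, 525.5, 387 and 409.5 in REC, 245.5, 314, 504 and 302 in CH, and 1074, 1125, 1161 and 1142 in NX. Like the Bcl11a probe set 1453814_at, it was low in both groups that had been hypoxic, and its change in CH against NX was -1.72 ± 0.28 (adjusted p = 0.000455).

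The listed targets and feedback genes of erythropoietin signals moved in both directions in CH. Which of them STAT5 acts on in blood was not tested. Of 22 measured of 24 listed, the calls in CH against NX were 5 higher and 6 lower, with a median of -0.09, and 1 was lower in REC than in NX, with a median of 0.12. All 18194 genes gave 9.08% higher and 19.5% lower in CH, and 1.79% lower in REC. Bcl2l1, whose product BCL-XL protects maturing erythroid cells, read 503, 258, 179 and 367 in REC, 7105, 11840, 10098 and 15857 in CH, and 627, 1108, 982 and 1197 in NX. The 3 groups did not overlap. The change was 3.48 ± 0.34 in CH against NX (adjusted p = 8.54e-06) and -1.59 ± 0.34 in REC against NX (adjusted p = 0.0158). Cish, the feedback inhibitor that STAT5 induces, read 148, 53.1, 49.8 and 161 in REC, 179, 127, 83.4 and 229.9 in CH, and 28.0, 44.6, 28.4 and 23.3 in NX. All 8 arrays of the REC and CH groups were above the 4 NX arrays. The change was 1.80 ± 0.37 in CH against NX (adjusted p = 0.00229) and 1.21 ± 0.37 in REC against NX, which did not pass (adjusted p = 0.0826).

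Foxo3, a factor of erythroid maturation that erythropoietin signals hold in check, rose by 1.69 in CH. The other listed genes that rose were Trib3 by 2.02 and Id1 by 1.15. Those that fell were Ptpn6 and Sh2b3, a phosphatase and an adaptor that shut off EPOR and JAK2 signals, with changes of -2.15 and -1.48, Dusp5 with -1.99, Bcl2l11, which promotes cell death, with -1.84, the cyclin gene Ccnd2 with -1.61 and the survival gene Mcl1 with -1.28. Ptpn6 read 2237, 2408, 2738 and 2476 in REC, 236.5, 181.5, 1102 and 339 in CH, and 1331, 1867, 1957 and 1498 in NX. CH replicate 3 was again the CH array nearest to NX. Of the SOCS family, Socs1 stayed at control level and Socs2 and Socs3 were not called against NX (0.24 and -1.03 in CH). Pim1 had a change of -0.86 in REC against NX (adjusted p = 0.0494), short of 2-fold.

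**Figure D5:**
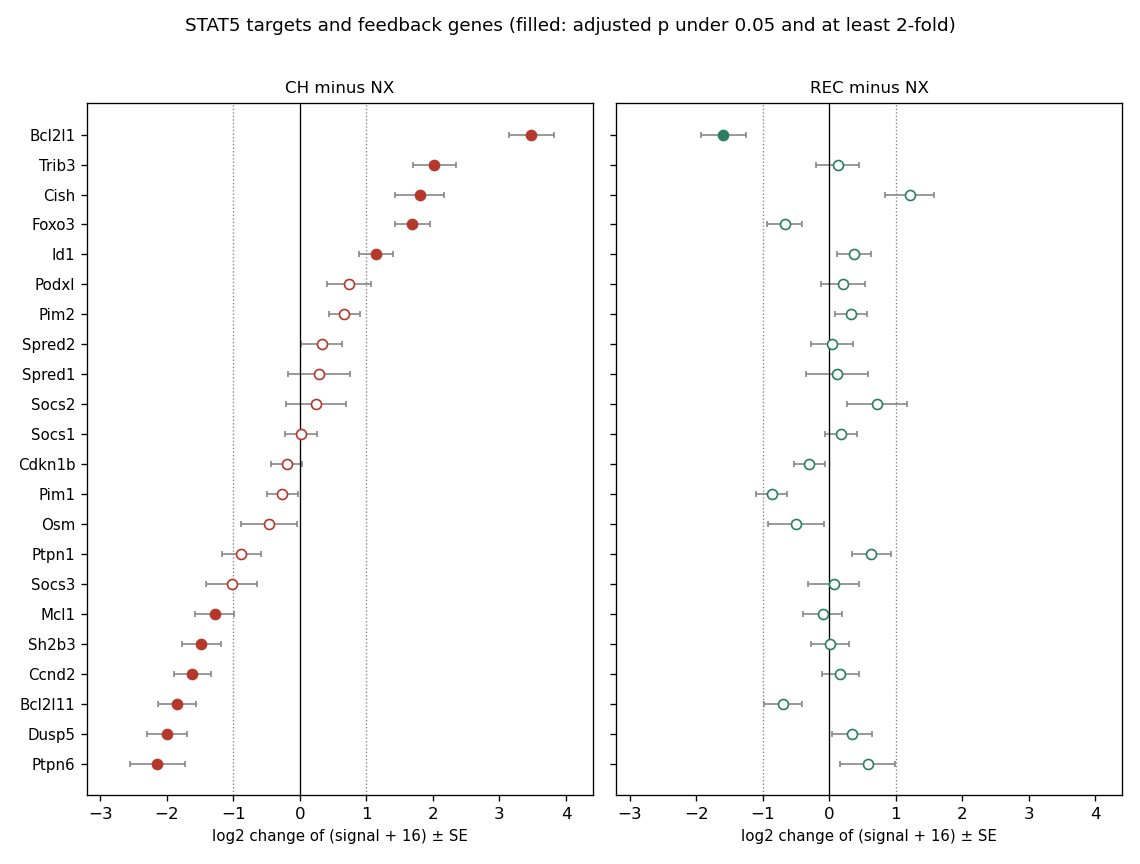
Log2 change of (signal + 16) with its standard error in CH minus NX and REC minus NX for 22 measured genes. They were listed as targets and feedback genes of erythropoietin signals. Filled points mark called genes and dotted lines a 2-fold change. In CH, 5 genes led by Bcl2l1 (3.48) were called higher and 6 led by Ptpn6 (-2.15) lower, and in REC Bcl2l1 alone was called, lower (-1.59).

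Transcription factors of stem and progenitor cells also moved in both directions. Of 30 measured, limma called 6 higher and 7 lower for CH against NX, with a median of -0.13. The shares of all 18194 genes were 9.08% higher and 19.5% lower. Mllt3, Zfpm1, Klf1 and Gata1 rose by 4.23, 2.73, 2.73 and 2.49, the last 3 being factors of the erythroid programme. Gata1, which replaces GATA2 on erythroid genes, read 758.5, 475, 389.5 and 718 in REC, 1990, 2506, 2208 and 3418 in CH, and 341, 507, 344 and 562.5 in NX. The CH arrays of Gata1 were all above the others, and its REC and NX arrays overlapped. Neither Gata2 probe set was called in CH against NX (-0.77 and -0.33). Whether the RNAs of Gata1 and Gata2 came from the same cells was not tested. The largest falls, named after their values were seen, were those of Hhex (-2.13), Cbfb (-2.08) and Cebpa (-1.83), factors that white cells use. In REC against NX, where the median was 0.15, Lyl1, a relative of the stem cell factor TAL1, was called higher by 1.16 ± 0.27 (adjusted p = 0.0238) and Lmo2, a partner of GATA factors, lower with a change of -1.11 ± 0.23 (adjusted p = 0.0149).

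Of 17 measured surface proteins, ligands and enzymes of progenitors of 20 listed, CH had 1 called higher and 6 called lower against NX, with a median of -0.045. The shares of all 18194 genes were 9.08% higher and 19.5% lower. The listed gene called higher was Prom1, a stem cell surface protein, with 2.42 to 114 in CH and 1.87 to 13.4 in NX. The groups overlapped and all NX arrays lay below their Bacillus maximum of 23.9, so no size is given. Angpt1, Cd48 and Esam fell by 1.85, 1.81 and 1.64. In REC against NX limma called 0 of the 17, 0 had an unadjusted p under 0.05, and the median was 0.14. The enzymes of granulocyte precursors Mpo, Elane, Prtn3 and Ctsg, and also Tek and Procr, never rose above the Bacillus controls.

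Partners of BCL11A and the globin genes it represses made up the last list, with 16 of 16 measured. In CH 5 were higher and 5 lower than in NX, with a median of -0.41, and in REC 1 was lower, with a median of -0.23. All 18194 genes gave 9.08% higher and 19.5% lower in CH, and 1.79% lower in REC. Sox6, which works with BCL11A on globin genes, read 58.9, 35.4, 33.2 and 20.6 in REC, 569.8, 807, 687 and 974 in CH, and 113.5, 186, 123 and 132 in NX. Its change was 2.32 ± 0.27 in CH against NX (adjusted p = 3.32e-05) and -1.57 ± 0.27 in REC against NX (adjusted p = 0.00489), and the 3 groups did not overlap. Klf1, which activates Bcl11a and the adult beta-globin gene in erythroid cells, and Dnmt1, the maintenance DNA methyltransferase, rose by 2.73 and 2.31 in CH. Hbb-y, an embryonic beta-like globin that BCL11A represses, read 118, 71.9, 57.8 and 25.7 in REC, 577, 755, 385 and 629 in CH, and 74.9, 137, 101 and 116 in NX. The change of Hbb-y was 2.28 ± 0.34 in CH against NX (adjusted p = 0.000215), and all CH arrays lay above all others. Embryonic and adult beta-like globins are similar in sequence and adult globin RNA is abundant in blood, so RNA of one bound by probes of the other cannot be told apart from expression here. The 5 that fell, named after their values were seen, were Hdac2 (-1.79), Mta2 (-1.56), Kdm1a (-1.33), Zbtb7a (-1.21) and Nr2c2 (-1.05), parts of repressor complexes or repressors of globin genes themselves.

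Genes whose signal over the 12 arrays was most like that of a member are given by Pearson's r of log2(signal + 16), as a description in which the 3 groups set most of the likeness. For Stat5a they were Nckap1l (0.993), Syk (0.991) and Slc7a1 (0.991), and for Stat5b Rap2c (0.991), Gnb1 (0.988) and Stk24 (0.983). For Bcl11a they were Dek (0.992), Tnks2 (0.991) and Aff3 (0.991), and for Myb Slc39a9 (0.985), Arhgap15 (0.982) and Tnpo3 (0.98). All 12 of these genes were lowest in CH by their group means. Jak2 was most like Tex2 (0.987), Itpr2 (0.973) and Tbl1xr1 (0.972), and Gata2 most like Tmem158 (0.98), Dapk1 (0.968) and Dph3 (0.968), the last 3 being highest in REC as Gata2 was. The dim members had weaker neighbours, with Dynlt3 (0.921), Arpc1a (0.917) and Cetn2 (0.907) for Epor, Pklr (0.912), Iqcg (0.853) and Slmap (0.842) for Kit, and Oprd1 (0.885), Nid1 (0.881) and Adam15 (0.853) for Cd34.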

How the data were processed

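Whole blood RNA of 12 mice was measured on Affymetrix Mouse 430 2.0 arrays. The labels describe ribo-SPIA amplification and the methods a T7-based labelling, which was not resolved. The deposited intensity values, on a linear scale, were made by the authors from a scan read with GCOS and scaled to a trimmed mean of about 150; the methods name GC-RMA, whose log2 scale these values do not have, and which program summarised the probes is not stated in these sources. The methods give 4 mice per group, each a separate animal, and 1 legend a larger number.

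Groups came from the labels. Of the 45101 probe sets, 34958 name 1 gene, 932 several and 9211 none in the annotation. A gene's main probe set was that with the highest mean log2 signal. log2(signal + 16) was fitted over all 45101 probe sets and 12 arrays with limma 3.58.1 in R 4.3.3 (9 residual degrees of freedom, Benjamini-Hochberg adjustment over all probe sets, calls at 0.05 and 2-fold), and the scripts were tested on simulated data. The number of arrays limits the precision. Single values were compared by exact permutation. Python 3.11.15, numpy 2.4.6, pandas 2.3.3, scipy 1.17.1 and matplotlib 3.10.9 were used. No filter on dim probe sets was applied.

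The 9 genes and the 18 lists were chosen with earlier results of these data known. From each list up to 4 called genes with the largest change in CH against NX and up to 4 in REC against NX were named. All ligands and all listed targets and feedback genes could be named. Other names are marked in the text. Alternatives were quantile, median and hybridization control scaling, a pseudocount of 1 or 64, leaving out dim probe sets, other tests and thresholds, array weights, a replicate block, 1 value per gene and leaving out each array. Leaving out CH replicates 1 and 2 together, and NX replicate 1 with CH replicate 4, was chosen after seeing the data. Listed genes without a probe set of their own were not analysed here.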

Additional observations from a re-analysis of the deposited data

Results flagged for a closer look

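In 2 of the 66 groups of 4 arrays examined for the 22 probe sets, 1 array stood apart from the other 3 by more than Dixon's critical value for 4 arrays, where chance flags about 1 in 20 groups, or 3.3 of 66. The dim Stat5a probe set 1450259_a_at read 45.4 in CH replicate 1, against 1.19 to 4.43 in the other CH arrays, all below the highest Bacillus control signal. The main Bcl11a probe set 1456632_at read 1077 in NX replicate 3, against 716 to 763 in the other NX arrays.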

How the results depend on the processing

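The 20 called changes of the 22 probe sets had 569 values under 28 to 29 other settings each, of which 0 had the opposite sign and 52 lost their call, 20 of them under the Bonferroni adjustment, 14 at an adjusted p under 0.001, 5 each with a pseudocount of 64 and under quantile normalization, and 3 when a gene's probe sets were averaged. Scaling to the hybridization controls moved the median of all probe sets to -0.71 in CH against NX, 0.40 in REC against NX and 1.13 in REC against CH, and took the counts to 15 lower in CH, 4 higher in REC than in NX and 18 higher in REC than in CH. It turned the sign of Jak2 1421065_at in CH against NX (-1.31) and, in REC against CH, of Epor (1.07), Jak2 1421065_at (1.26), Bcl11a 1447334_at (1.18) and Bcl11a 1453814_at (1.05), where the median of all probe sets turned the same way, so that these signs are not read as changes of these genes. At an adjusted p under 0.001 the counts were 3 lower in CH than in NX, 0 lower in REC than in NX and 3 higher in REC than in CH, and under the Bonferroni adjustment 0, 0 and 0. With 1 probe set per gene they were 4, 0 and 5, against 19.5%, 1.79% and 23.3% of all 18194 genes. For the other settings given here the share of all probe sets called was not counted. A pseudocount of 1, no limit on the change, or leaving out CH replicate 1 each gave 1 called higher in CH than in NX and 1 called lower in REC than in CH, the lower one also when CH replicates 1 and 2 were left out together. Without CH replicate 1 they were Kit 1415900_a_at in CH against NX and Jak2 1421065_at in REC against CH. In REC against NX, a pseudocount of 64 left 0 called lower and array weights gave 2. Leaving out 1 array at a time gave 0 to 1 higher and 9 to 10 lower in CH against NX, 0 to 0 higher and 1 to 1 lower in REC against NX, and 9 to 10 higher and 0 to 1 lower in REC against CH. Deviations from the group means had correlations of -0.203 to 0.436 between same-numbered arrays (median 0.0254, 3 of 12 pairs over 0.1). Between different-numbered arrays they were -0.435 to 0.353 (median -0.0108, 5 of 36 pairs over 0.1). These overlapping ranges do not settle whether the replicate numbers pair the arrays. With a replicate block the counts were 0 higher and 9 lower, 0 and 1, and 10 and 0. Epor, Kit and Cd34 stayed under the highest Bacillus signal of the CH arrays, 53.6, on all arrays, which limits how small a change in them these arrays can show. The lists of other genes were counted under the deposited scaling alone.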
